A study of Mus musculus with 24 samples.

Results

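Mouse embryonic stem cells labelled as lacking TRIM24 were compared with unedited cells before the DUX transgene was induced. The comparison takes 4 of the 24 libraries of the series, chosen by their titles. They are 2 libraries of the TRIM24-KO pLV2 line without doxycycline (DOX) and 2 of WT pLV2 line 1 without DOX. All cells are of KH2, a mouse embryonic stem cell line built for doxycycline-inducible transgenes. Both lines, the control included, carry a DUX transgene behind a doxycycline-responsive (TRE) promoter and a pLV2 element that the labels do not define. Cells grew in serum with LIF, on gelatin or on growth-arrested mouse embryonic fibroblasts, and the labels do not say which libraries came from which. The labelled knockout is a single line, with no statement of how the gene was edited or of how many clones it holds. The treatment tag of both knockout libraries reads DOX, against their titles, and the titles were followed. Dux, the endogenous homologue of the transgene, had 1 and 1 counts in WT line 1 and 0 and 0 in the labelled knockout, against 95 and 110 and 38 and 24 in the same lines after 16 h of DOX.

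TRIM24 belongs to the TIF1 family, whose members join a RING-type ubiquitin ligase module to a PHD finger and bromodomain that read histone tails. It binds nuclear receptors such as the retinoic acid receptor, it ubiquitinates p53, and in mouse liver it restrains VL30 endogenous retroviruses. TRIM28, the best-known relative, silences endogenous retroviruses in embryonic stem cells through KRAB zinc finger proteins and SETDB1, and TRIM33 acts on SMAD signalling. The gene lists described here were therefore drawn around these pathways, around pluripotency and lineage markers, and around retroelement families.

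Counts assigned to genes ranged from 13657694 to 16194995 in the 4 libraries, and repeats took 7.58 to 8.28% of all counts. Nothing in the labels says that replicates came from separate cultures, so each p-value measures the spread between these libraries, which may be technical. Replicates correlated at r = 0.991 (log2 CPM over 18079 genes) in either line, against 0.963 to 0.970 across the lines. Mitochondrial transcripts took 11.5 and 12.0% of gene counts in WT line 1 and 14.5 and 14.8% in the labelled knockout, and the part of this in the results was not tested. Another unedited line, WT pLV2 line 2 without DOX (2 libraries), and the same 2 lines with DOX (4 libraries) are given beside the results. In this shared fit 2 libraries stand apart by the single gene CT010467.1, which took 30.4% of gene counts in the labelled knockout with DOX, replicate 2, and 12.9% in TRIM33-KO with DOX, replicate 2. Without both, 6210 genes and 219 repeat subfamilies were called in the main comparison, beside the 6100 and 148 given below.

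Trim24 transcript was not lowered in the labelled knockout. Trim24 (ENSMUSG00000029833.17, chr6:37870811-37966296, GRCm38) stood at 100 and 94.5 CPM (counts scaled to a common library size) in WT line 1, at 137 and 123 CPM in the labelled knockout and at 196 and 165 CPM in WT line 2. The knockout libraries were thus above both WT line 1 libraries and below both WT line 2 libraries, with no overlap. The log2 fold change was 0.42 ± 0.10 (SE; adjusted p = 0.00309, edgeR quasi-likelihood test) against line 1, and -0.47 (adjusted p = 0.000545) against line 2. A count per gene does not show whether a transcript is still translated, and where the edit lies in the gene is not stated, so the label could not be checked here. All directions below rest on that label.

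The 3 relatives of Trim24 also differed. Trim28, the co-repressor of endogenous retroviruses, stood at 1742 and 1740 CPM in WT line 1 and at 1057 and 1134 CPM in the labelled knockout. It was lower by 0.67 ± 0.06 on the log2 scale (log2 fold change -0.67, adjusted p = 3.99e-07), and both WT line 2 libraries, at 1331 and 1342 CPM, lay between the other lines. Trim33, the SMAD-linked member, was higher, at 163 and 165 CPM against 140 and 136 CPM in WT line 1, the order of every pair below joined by "against" (log2 fold change 0.25 ± 0.07, adjusted p = 0.00773). Trim66, at 0.300 and 0.696 against 1.30 and 1.48 CPM, was lower (log2 fold change -1.46 ± 0.43, adjusted p = 0.0152). With any of 3 libraries left out its p missed the threshold, and its adjusted p ranged up to 0.157.

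Across the transcriptome 6100 of 18079 genes tested (33.7%) passed an adjusted p of 0.05. Of these, 2969 (16.4%) were higher and 3131 (17.3%) lower in the labelled knockout. The balance turned with the scaling, to 3486 higher and 2507 lower when CT010467.1 was dropped before scaling and to 3265 and 2744 under RLE, the scaling by median ratios. The total fell to 3929 without WT line 1 replicate 2 and to 4025 without replicate 1 of the labelled knockout. With a log2 fold change of at least 1 added, 1062 (5.87%) were higher and 772 (4.27%) lower. The median log2 fold change over all genes was -0.02, and the median size of the change 0.32. The unedited WT line 2 differed from WT line 1 at 6886 genes (38.1%), with a median size of 0.35. Its median log2 fold change against line 1 was 0.43 on chromosome 1, 0.30 on 6, 0.30 on 8 and 0.40 on 11. On the other autosomes and X it was -0.20 to 0.14. Values against line 2 carry these offsets for genes on those chromosomes, such as Gbx2 on chromosome 1. Against line 2, the labelled knockout differed at 8681 genes (48%), 4114 higher (22.8%) and 4567 lower (25.3%). These 3 comparisons share libraries, and a difference between single lines cannot be told apart from an effect of the edit.

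With DOX, in libraries that none of the former comparisons use, 5791 genes (32%) differed between the same 2 lines, 3218 higher (17.8%) and 2573 lower (14.2%) in the labelled knockout. Of the genes called without DOX, 68.1% were called with DOX in the same direction, which is 71.8% of the genes called with DOX. Of the genes called in both, 4156 had the same direction and 15 the opposite one. A change of the difference with DOX, tested as an interaction, passed at 36 genes (0.199%), with 1262 (6.98%) at an unadjusted p under 0.05. This count was 5 without either WT line 1 library, 20 and 15 without replicate 1 or 2 of the labelled knockout, 175 with no filter on low counts and 71 in DESeq2.

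**Figure D1:**
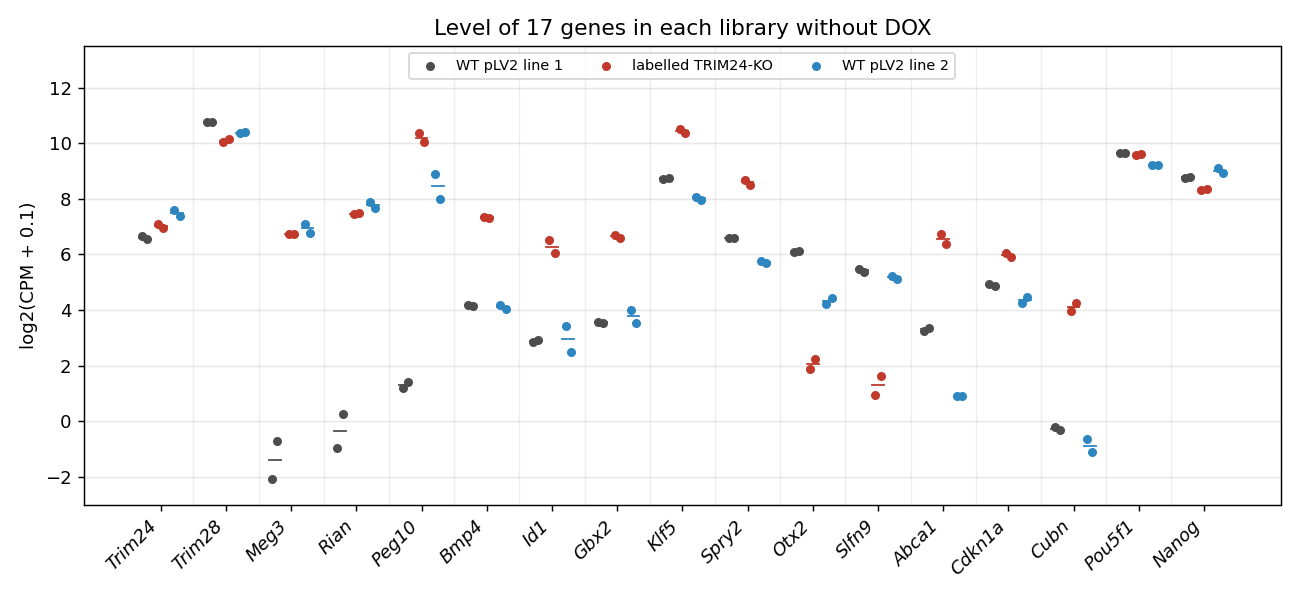
Level of 17 genes in each library without DOX, as log2(CPM + 0.1), with points for the 2 libraries of WT line 1 (grey), the labelled knockout (red) and WT line 2 (blue), and bars for the mean of the log values. Trim24 in the labelled knockout lies between the WT lines, Meg3, Rian and Peg10 are near the bottom only in WT line 1, and Bmp4, Id1, Gbx2 and Cubn are high only in the labelled knockout.

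Some of the genes on which the account turns are shown by the 250 bases upstream of their start sites (RefSeq, GRCm38.p6, 5′ to 3′ on the gene's strand), with each CpG in capitals, because CpG methylation is the mark by which imprinted genes are set. Meg3 is the maternally expressed RNA that opens a run of co-transcribed RNAs, and Bmp4 and Gbx2 were higher than in both WT lines.
Meg3, chr12:109540746-109540995 (plus strand): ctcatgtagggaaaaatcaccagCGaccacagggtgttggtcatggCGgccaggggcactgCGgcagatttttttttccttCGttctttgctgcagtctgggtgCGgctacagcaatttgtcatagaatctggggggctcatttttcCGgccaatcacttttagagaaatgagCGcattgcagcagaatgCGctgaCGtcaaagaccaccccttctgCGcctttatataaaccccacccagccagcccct
Bmp4, chr14:46390670-46390919 (minus strand): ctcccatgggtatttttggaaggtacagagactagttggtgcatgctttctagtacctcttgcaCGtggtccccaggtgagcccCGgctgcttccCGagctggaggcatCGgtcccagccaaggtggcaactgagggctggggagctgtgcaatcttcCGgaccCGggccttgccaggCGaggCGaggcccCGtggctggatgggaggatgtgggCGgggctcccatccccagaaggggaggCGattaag
Gbx2, chr1:89931177-89931426 (minus strand): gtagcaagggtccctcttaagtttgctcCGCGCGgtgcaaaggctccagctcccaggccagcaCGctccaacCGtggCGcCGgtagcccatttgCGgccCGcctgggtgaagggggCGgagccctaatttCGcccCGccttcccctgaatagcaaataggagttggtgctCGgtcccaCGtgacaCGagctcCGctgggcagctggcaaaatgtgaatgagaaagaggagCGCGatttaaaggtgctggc
They hold 10, 11 and 18 CpG, against a median of 6 over 32851 promoters of this length. Methylation was not measured. Of 92 named genes, 69 matched a promoter, and none of these held a DR5 or DR4, the direct repeats of the nuclear receptor half-site by which retinoic acid and related receptors bind. On both strands, DR5 was present in 0.0883% of all promoters and DR4 in 0.067%.

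The maternally expressed RNAs of the Dlk1-Dio3 imprinted locus on chromosome 12 separated WT line 1 from the other lines. Meg3 (chr12:109541001-109571726), a long noncoding RNA whose loss marks a silenced maternal copy in many pluripotent lines, stood at 0.137 and 0.515 CPM in WT line 1, at 107 and 107 CPM in the labelled knockout, and at 136 and 110 CPM in WT line 2. Rian, the snoRNA host downstream of it, stood at 0.412 and 1.09, 176 and 178, and 235 and 204 CPM. Both were nearly absent from line 1 and abundant elsewhere. The log2 fold changes against line 1 were 8.30 ± 0.20 for Meg3 and 7.84 ± 0.18 for Rian (adjusted p = 7.94e-14 for each), while against line 2 they were -0.20 and -0.31. Mirg, the microRNA host of the locus, was at or under 3 counts in each WT line 1 library and at least 124-fold higher in the labelled knockout. B830012L14Rik, from the same locus, was at least 73.8-fold higher.

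Across this locus 4 of 6 tested genes were higher and 1 lower (83.3% called, against 33.7% of all genes), with a median log2 fold change of 4.87. Against line 2, the only call among these 6 was Rian, lower (adjusted p = 0.0181), and Meg3 missed the threshold (adjusted p = 0.0861). Dlk1, the paternally expressed growth inhibitor at the far end, was higher (log2 fold change 1.90 ± 0.36) but low everywhere, at 2.22 and 3.02 against 0.480 and 0.901 CPM. Dio3, a thyroid hormone deiodinase, was lower (-1.37 ± 0.43, adjusted p = 0.0224), but DESeq2 called no gene of the locus lower (1 at an unadjusted p under 0.05).

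Other imprinted genes gave 15 higher and 6 lower of 39 tested (53.8% called, against 33.7% of all genes), with a median log2 fold change of 0.13. Outside the displaced windows described below 11 were higher and 6 lower, and the unedited line 2 against line 1 gave 16 and 5 over the list. The cluster of Peg10, Sgce and Ppp1r9a lies in such a window, the first 10 Mb of chromosome 6. Peg10 (chr6:4747306-4760517), a retrotransposon-derived gene that the placenta needs, stood at 2.20 and 2.57 CPM in WT line 1, at 1329 and 1046 CPM in the labelled knockout, and at 479 and 257 CPM in WT line 2. The groups did not overlap, with a log2 fold change of 8.95 ± 0.36 against line 1 (adjusted p = 5.23e-11) and 1.69 against line 2. Its divergent neighbour Sgce was at least 25.5-fold higher than in line 1, where both libraries were at the floor, and Ppp1r9a of the same cluster was higher by 1.63 ± 0.12. Away from that cluster, Cdkn1c, the cell cycle inhibitor of the maternal chromosome 7 domain, stood at 13.0 and 12.0 CPM in WT line 1, 70.2 and 65.8 CPM in the labelled knockout and 8.48 and 8.76 CPM in line 2. Its log2 fold change was 2.44 ± 0.11 (adjusted p = 1.03e-10). H19 and Igf2, reciprocally imprinted neighbours on that chromosome, went opposite ways, H19 being lower (-2.68 ± 0.27) and Igf2 higher (1.61).

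**Figure D2:**
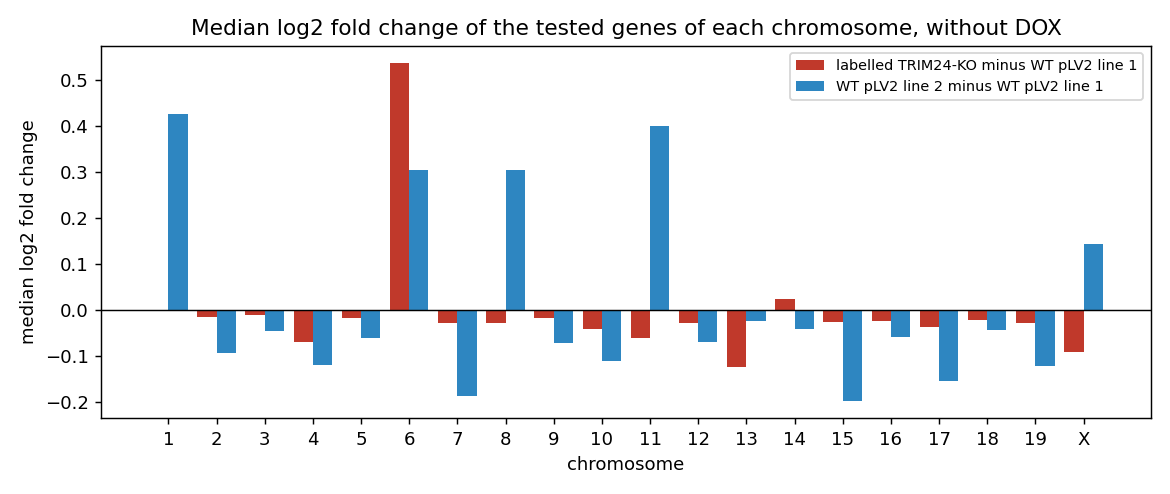
Median log2 fold change of the tested genes of each chromosome without DOX, for the labelled knockout (red) and WT line 2 (blue), each minus WT line 1. Only the autosomes and X are drawn, and among them the labelled knockout has a median of 0.54 on chromosome 6 and of -0.12 to 0.02 on the others, while line 2 has displaced chromosomes of its own.

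Genes of chromosome 6 were higher as a block. Of 821 tested genes there, 54.4% were called, and the median log2 fold change was 0.54, against -0.12 to 0.02 on the other autosomes and X. Over the first 110 Mb, 254 of 300 genes with a mean of at least 50 counts were higher and 8 lower, with a median of 0.85 (quartiles 0.60 and 1.13). The block ended between Edem1 (to chr6:108859356) and the next tested gene, Lmcd1 (from chr6:112273758), past which 32 of 195 such genes were higher and 53 lower (median -0.07). With DOX, the median of the first 110 Mb was 0.91.

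Trim24 lies inside that block. In its 10 Mb window, 7 of 44 genes with at least 50 counts had a smaller fold change than Trim24, and their median was 0.79. Line 2 shared the first 40 Mb of the block but not the rest. Its median against line 1 was 1.38 over the first 40 Mb and -0.07 from 40 to 110 Mb, so that the labelled knockout minus line 2 gave -0.52 and 0.95 over these stretches. DNA copy number was not measured, and these borders were set after the values were seen.

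On chromosome 14 another block lay near the distal end. Between 78 and 90 Mb, 12 of 16 genes with at least 50 counts were higher and 1 lower, with a median log2 fold change of 1.15. From 90 to 100 Mb all 6 such genes were higher (median 1.70), and from 100 to 120 Mb 21 of 23 were higher (median 1.61). Past 120 Mb the direction turned, with 1 of 15 higher, 13 lower and a median of -1.11. The medians with DOX were 1.14 (78 to 90 Mb), 1.59 (100 to 120 Mb) and -1.11 (past 120 Mb), and against line 2 the medians had the same signs, at 1.25, 1.53 and -1.04.

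Within this block, Mycbp2, a large ubiquitin ligase of axon biology, stood at 99.8 and 98.2 CPM in WT line 1 and at 493 and 428 CPM in the labelled knockout (log2 fold change 2.22 ± 0.08). Uchl3, a deubiquitinase, stood at 161 and 154 against 42.1 and 38.4 CPM (1.97 ± 0.07). Ipo5, an importin gene beyond 120 Mb, was instead lower, at 318 and 307 against 690 and 680 CPM (-1.13 ± 0.06). Klf5 and Spry2, described below among the pluripotency and FGF genes, sit in the block, and their fold changes of 1.70 and 2.01 compare with block medians of 1.70 and 1.61. Bmp4 and Otx2, also on chromosome 14, lie proximal to it, where 342 genes had a median of -0.01.

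In all, 18 of 273 windows of 10 Mb had a median displaced by 0.5 or more, and 68.1% of their 596 genes were called. Outside these windows 32.6% of 17483 genes were called, 2598 higher and 3096 lower.

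**Figure D3:**
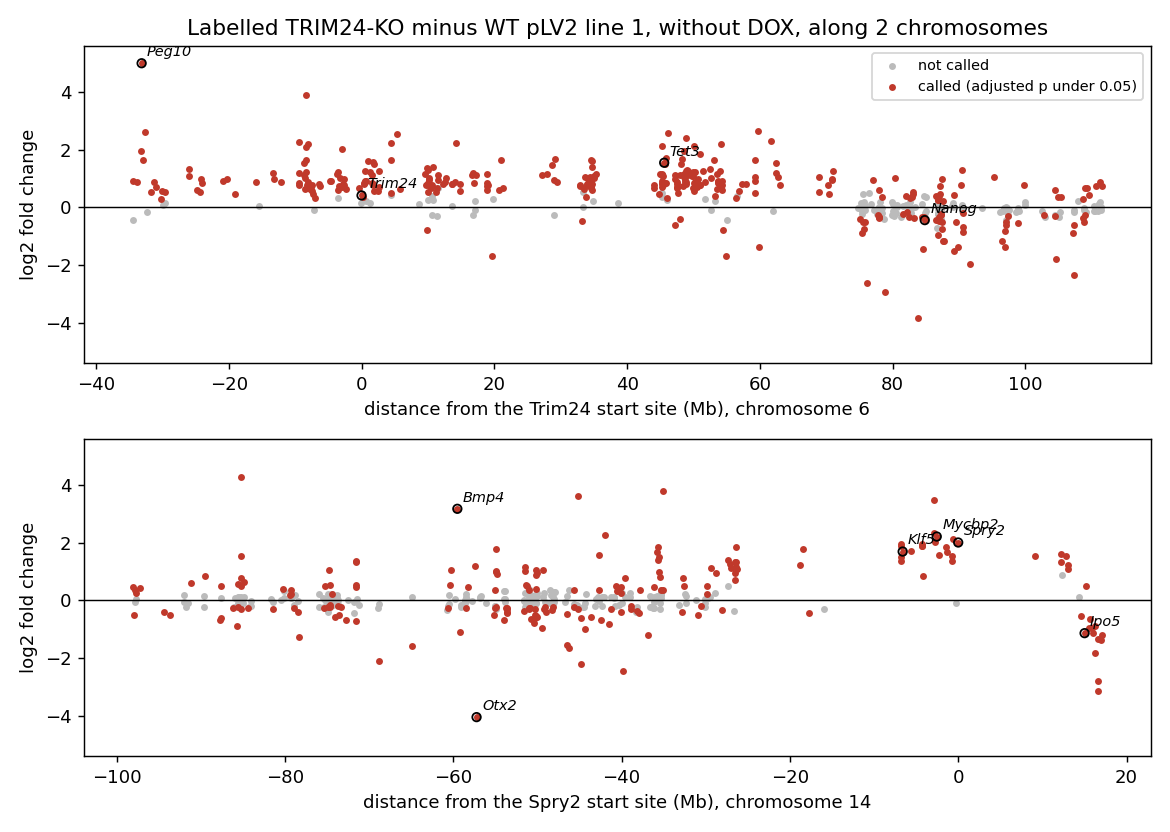
Log2 fold change of the labelled knockout minus WT line 1 for genes with a mean of at least 50 counts, against distance in Mb from the Trim24 start (chromosome 6) and from the Spry2 start (chromosome 14), with called genes in red and Peg10 drawn at the edge value of 5. The displaced blocks have sharp ends, and on chromosome 14 the genes beyond 120 Mb, Ipo5 among them, lie below 0.

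Several Y-linked genes were lower by a wide margin. Ddx3y, a Y-linked RNA helicase, stood at 11.5 and 48.2 CPM in WT line 1 and at 0.180 and 0.232 CPM in the labelled knockout, with 36.6 and 57.6 CPM in line 2. Eif2s3y, a Y-linked translation factor, stood at 0.300 and 0.290 against 20.1 and 49.7 CPM. The WT line 1 replicates themselves differed widely at both genes, yet the groups did not overlap (log2 fold changes -7.12 ± 1.07 and -6.85 ± 0.68, adjusted p = 8.62e-05 for Ddx3y). Of 13 Y-linked genes tested, 6 were lower and 1 higher (53.8% called, against 33.7% of all genes), the higher one being the unnamed model Gm47283 (0.93). Xist, the trigger of X inactivation, was low in every library, at 1.86 and 1.04 against 0.274 and 0.322 CPM (2.25 ± 0.52). Tsix, its antisense partner, was higher too (0.63 ± 0.10), and since the counting is not stated to use strand their reads cannot be told apart.

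In the BMP branch of TGF-beta signalling, in which TIF1 proteins are known to act, the ligand gene Bmp4 and the target Id1 were higher. BMP4 signals through SMAD1 and SMAD5 to the Id genes, and in serum with LIF this restrains neural differentiation of embryonic stem cells. Bmp4 (chr14:46383520-46390669) stood at 18.2 and 17.4 CPM in WT line 1, at 163 and 160 CPM in the labelled knockout and at 18.1 and 16.4 CPM in WT line 2. The libraries of the 2 unedited lines overlapped, and the labelled knockout was higher by 3.18 ± 0.10 (adjusted p = 5.49e-12) against line 1 and by 3.22 against line 2. Id1, an inhibitor of bHLH factors that BMP induces, stood at 7.14 and 7.47, 91.0 and 65.7, and 10.7 and 5.45 CPM, with a log2 fold change of 3.42 ± 0.25 (adjusted p = 3.89e-08) against line 1.

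Of all 40 BMP, Nodal and TGF-beta genes tested, Bmp4 and Id1 included, 11 were higher and 13 lower, with a median of -0.10 (60% called, against 33.7% of all genes), while the counts were 14 and 11 without CT010467.1 and 16 and 7 with DOX. Tgfb1 was higher, at 23.4 and 22.5 against 11.5 and 8.30 CPM (1.21 ± 0.13, adjusted p = 2.11e-06), and so was the receptor gene Tgfbr2, at 8.95 and 5.45 against 0.480 and 0.644 CPM (3.65 ± 0.45). Lefty1 and Lefty2, feedback inhibitors that Nodal induces, were lower, with log2 fold changes of -1.30 ± 0.21 and -1.03 ± 0.14, as was Nodal itself (-0.35 ± 0.09). The receptor gene Acvr2b (-0.56 ± 0.11) and the ligand Gdf3 (-0.33 ± 0.10) were also lower, while the co-receptor Tdgf1 (-0.12), the receptors Acvr1b (-0.15) and Acvr2a (0.33) and the effector Smad2 (0.12) did not pass. Bmp7 was lower too (-1.92 ± 0.29), and the Id genes did not move as one, Id2 being higher (1.60) and Id3 lower (-0.54, adjusted p = 0.0289). With DOX Id3 had a log2 fold change of 0.78, and the change with DOX had an adjusted p of 0.029.

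Core pluripotency factors stayed abundant, but Nanog and Sox2 changed by more than the median size over all genes (0.32). Pou5f1, the POU factor that defines the state, stood at 794 and 807 CPM in WT line 1 and at 763 and 778 CPM in the labelled knockout (-0.05 ± 0.07, adjusted p = 0.599). Against line 2 Pou5f1 was higher (0.38, adjusted p = 0.000303, edgeR quasi-likelihood test). Nanog was lower, at 315 and 329 against 435 and 439 CPM (-0.44 ± 0.08, adjusted p = 0.000342), and Sox2 was lower by a similar amount, at 362 and 369 against 471 and 483 CPM (-0.38 ± 0.07). Zfp42 (Rex1), a naive-state zinc finger gene, was higher than in line 1, at 240 and 228 against 186 and 182 CPM (0.35 ± 0.12, adjusted p = 0.0363), and lower than in line 2 (-0.44). Without a single replicate its adjusted p ranged up to 0.167.

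Of 25 naive and core genes 13 were lower and 5 higher, with a median of -0.35 (72% called, against 33.7% of all genes). WT line 2 against line 1 gave nearly the same counts, 13 lower and 6 higher, and the labelled knockout against line 2 gave 14 lower and 10 higher. With DOX the same list gave 13 lower and 6 higher. The naive-state factors Klf2 (225 to 102 CPM in mean), Tbx3 (382 to 186 CPM) and Klf4 (224 to 142 CPM) had log2 fold changes of -1.15 ± 0.08, -1.04 ± 0.08 and -0.66 ± 0.08. Against line 2 they were -0.80, -0.21 and -0.65. Fbxo15, an OCT4-dependent reporter gene of the stem cell state, stood at 28.9 and 35.2 against 92.1 and 92.7 CPM (-1.53 ± 0.09), and line 2 was close to the labelled knockout, at 39.8 and 39.96 CPM.

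A pair of naive-state genes went the other way. Gbx2 (chr1:89927956-89931179), a homeobox gene downstream of LIF and STAT3, stood at 11.9 and 11.4 CPM in WT line 1, at 104 and 96.8 CPM in the labelled knockout and at 15.8 and 11.6 CPM in WT line 2. It was higher by 3.11 ± 0.12 against line 1 (adjusted p = 5.23e-11) and by 2.86 against line 2. Klf5 (chr14:99298691-99315036), a Krüppel-like factor of naive and trophectoderm cells, stood at 424 and 433, 1446 and 1332, and 267 and 250 CPM. Its log2 fold changes were 1.70 ± 0.08 (adjusted p = 1.15e-10) and 2.43.

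Of 14 genes of the primed, post-implantation state, 6 were lower and 3 higher, with a median of -0.49 (64.3% called, against 33.7% of all genes), and line 2 against line 1 also had 6 lower, with 4 higher. Otx2 (chr14:48657677-48673819), the homeobox factor that drives the passage from naive to primed pluripotency, stood at 67.4 and 69.1 CPM in WT line 1, at 3.60 and 4.64 CPM in the labelled knockout and at 18.3 and 21.6 CPM in WT line 2. All 3 lines were apart, and the log2 fold change against line 1 was -4.04 ± 0.17 (adjusted p = 5.94e-11). Dnmt3a, the de novo DNA methyltransferase, was lower, at 43.5 and 49.7 against 104 and 102 CPM (-1.14 ± 0.09). Sox4 was lower as well, at 11.8 and 11.0 against 29.2 and 28.5 CPM (-1.34 ± 0.12). Dnmt3b, the other de novo enzyme, was higher, at 349 and 342 against 217 and 210 CPM (0.69 ± 0.08).

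Among the FGF-ERK genes of the list of LIF, FGF-ERK and Wnt genes, Spry2 (chr14:105891947-105896819), an inhibitor that ERK signalling induces, stood at 96.7 and 95.0 CPM in WT line 1, 410 and 362 CPM in the labelled knockout, and 54.1 and 52.0 CPM in line 2. Dusp6, the ERK phosphatase, stood at 44.3 and 42.4, 152 and 122, and 23.2 and 24.4 CPM. Log2 fold changes were 2.01 ± 0.09 and 1.66 ± 0.11 (adjusted p = 7.24e-11 and 1.41e-08). Spry4 (1.33 ± 0.09) and Etv4 (1.73 ± 0.12), further ERK-responsive genes, were also higher, as were Dusp4 (0.85 ± 0.13), Spry1 (0.61 ± 0.12) and Ier3 (0.58 ± 0.16). Egr1 was lower (-0.37 ± 0.13), and Etv5 (0.18) and Fos (-0.68) did not pass.

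On the Wnt side, Sfrp1, a secreted Wnt antagonist, was lower, at 48.8 and 68.7 against 183 and 196 CPM (-1.69 ± 0.11), and the Wnt effector Lef1 was lower by 1.18 on the log2 scale (-1.18 ± 0.20). The whole list of LIF, FGF-ERK and Wnt genes gave 11 higher and 7 lower of 29 tested, with a median of 0.21 (62.1% called, against 33.7% of all genes), and 14 and 7 with DOX. Myc, a LIF-responsive proto-oncogene counted here with the cell cycle genes, was higher, at 103 and 88.8 against 33.6 and 28.1 CPM (1.63 ± 0.13), and Mycn was lower (-0.97 ± 0.08). Cyclin E1 (Ccne1) was higher (1.05 ± 0.07), and cell cycle genes as a list had 10 higher and 9 lower of 38 (50% called, against 33.7% of all genes).

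**Figure D4:**
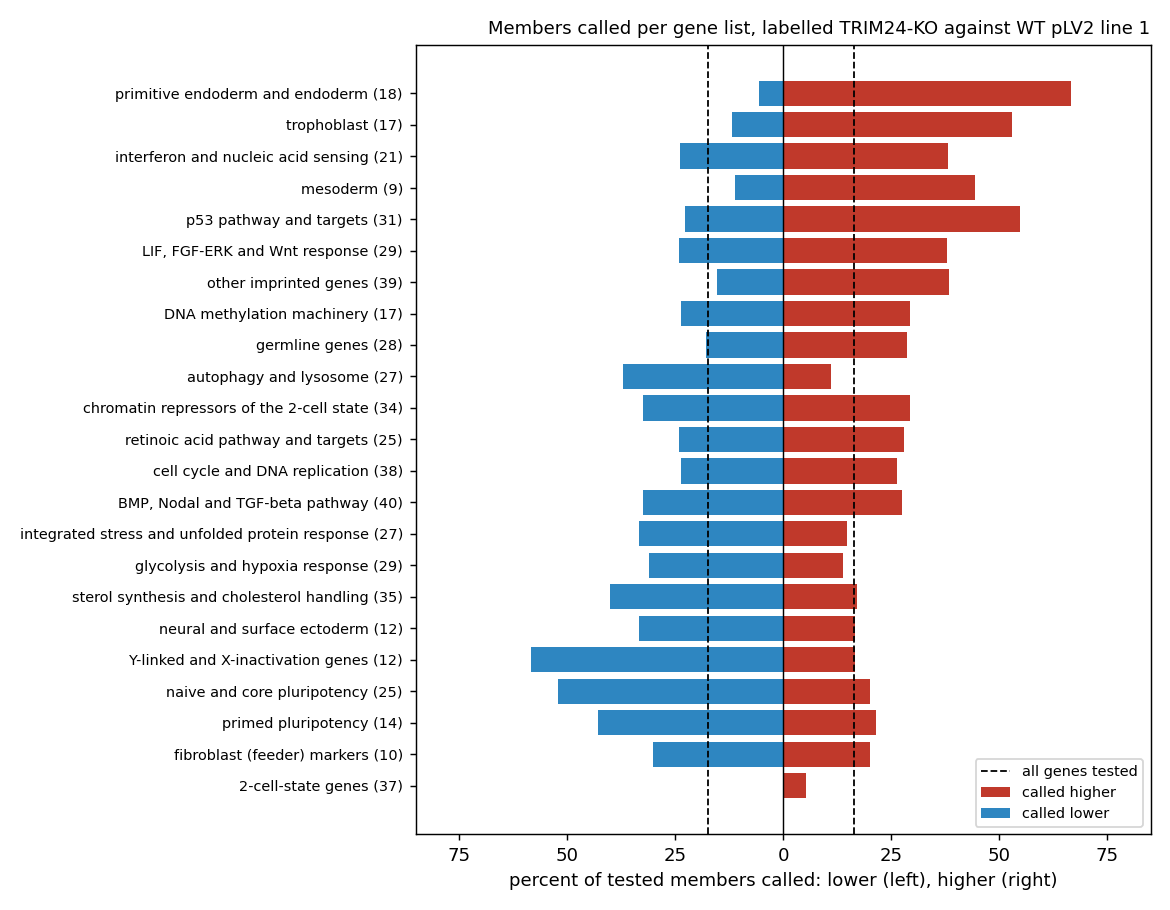
Percent of the tested members of each gene list called lower (left, blue) and higher (right, red) in the labelled knockout against WT line 1, with the number tested in brackets and lists ordered by median log2 fold change. Dashed lines mark all genes tested, at 17.3% lower and 16.4% higher, and primitive endoderm, p53 and trophoblast genes extend furthest to the right.

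Among genes of the extraembryonic lineages, more were higher than lower, most of them from low levels. Of 18 tested primitive endoderm genes 12 were higher and 1 lower, with a median of 0.93 (72.2% called, against 33.7% of all genes), and with DOX the counts were also 12 and 1. Cubn, an endocytic receptor of visceral endoderm, stood at 0.755 and 0.708 CPM in WT line 1, at 15.6 and 18.7 CPM in the labelled knockout and at 0.533 and 0.368 CPM in line 2 (4.54 ± 0.29 against line 1, adjusted p = 1.13e-08). Dab2, an endocytic adaptor, stood at 5.71 and 6.27 against 0.823 and 0.901 CPM (2.78 ± 0.37). Sox7 stood at 9.67 and 6.96 against 1.85 and 1.54 CPM (2.29 ± 0.28). The lineage-specifying factors Gata4 (1.57 ± 0.35) and Gata6 (1.69 ± 0.35) stayed under 5 CPM, and Foxa2 had at most 4 counts in any library.

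Trophoblast genes gave 9 higher and 2 lower of 17 tested, with a median of 0.66 (64.7% called, against 33.7% of all genes), and 12 and 1 with DOX. Tead4, needed for trophectoderm, was higher, at 80.3 and 68.1 against 29.0 and 31.0 CPM (1.31 ± 0.10), and so was the keratin gene Krt18, at 37.0 and 31.4 against 13.4 and 11.1 CPM (1.48 ± 0.17). The lineage factors Eomes (-0.90 ± 0.15) and Tfap2c (-0.71 ± 0.12) were lower. Gata3, at 17 and 14 against 1 and 4 counts, and Elf5, at 19 and 9 against 1 and 1 counts, were higher. Cdx2 had 13 and 9 against 0 and 0 counts. Summed over the 6 primitive endoderm markers the level was 5.35 and 5.86 CPM in WT line 1 and 24.5 and 21.9 CPM in the labelled knockout. Over the 6 trophoblast markers it was 17.2 and 19.9 CPM in WT line 1 and 26.6 and 25.1 CPM in the labelled knockout, most of it from Plet1, which was not called. The same sum was 3879 and 3952 CPM and 3509 and 3569 CPM for 8 stem cell markers. In bulk RNA, a few cells of another type and a low level in every cell cannot be told apart.

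Mesoderm genes gave 4 higher and 1 lower of 9 tested (55.6% called, against 33.7% of all genes), and 1 and 1 with DOX. Hand1 was higher, at 1.68 and 1.74 against 0.480 and 0.322 CPM (2.08 ± 0.42), Evx1, on the displaced part of chromosome 6, was at the floor in WT line 1 and at least 5.52-fold higher, at 1.56 and 0.638 against 0.0686 and 0.129 CPM (adjusted p = 0.00344), and Pecam1, which stem cells also express, was lower, at 35.4 and 46.5 against 134 and 141 CPM (-1.75 ± 0.13). Without a replicate, the adjusted p of Evx1 reached 0.0652.

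Neural and surface ectoderm genes gave 2 higher and 4 lower of 12 (50% called, against 33.7% of all genes). Uchl1, a neuronal deubiquitinase, was lower, at 18.7 and 19.6 against 76.6 and 69.8 CPM (-1.94 ± 0.09, adjusted p = 2.65e-10). Olig2, a neural progenitor factor, was lower, at 7.45 and 10.7 against 42.5 and 39.3 CPM (-2.17 ± 0.13), and neuronal tubulin Tubb3 was lower by 1.20 (-1.20 ± 0.13).

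Feeder fibroblasts could contribute RNA, since some cells may have grown on them. Of 10 fibroblast markers, 7 were at or under 3 counts in all 4 libraries, and of these Dcn, Postn and Twist2 were at 0 throughout. Their summed level was 10.6 and 10.6 CPM in WT line 1 and 15.7 and 16.5 CPM in the labelled knockout, of which Thy1 and Fbn1 made the greater part. Within the wider fibroblast list 2 of 10 tested genes were higher and 3 lower (50% called, against 33.7% of all genes), while line 2 against line 1 gave 5 and 1. The matrix gene Fn1 was lower, at 608 and 709 against 1451 and 1498 CPM (-1.16 ± 0.08), as was Vim (-0.89 ± 0.16), and Fbn1 was higher (0.90 ± 0.21), which turned to -0.62 against line 2.

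More p53 targets were higher than lower. TRIM24 is known as a ubiquitin ligase for p53, and the list holds p53 itself, its regulators and partners, and genes that it activates in response to damage. Of 31 tested, 17 were higher and 7 lower (77.4% called against 33.7% of all genes, median 0.30). With DOX 20 were higher and 5 lower, and against line 2 the counts were 21 and 2. The unedited lines differed at this list as well, line 2 against line 1 having 5 higher and 15 lower. Perp, a membrane protein of p53-dependent apoptosis, stood at 15.6 and 16.6 CPM in WT line 1, 84.7 and 64.6 CPM in the labelled knockout and 14.4 and 13.0 CPM in line 2 (2.21 ± 0.13, adjusted p = 2.33e-09). Cdkn1a, which encodes the cell cycle inhibitor p21, stood at 30.6 and 29.2, 66.9 and 60.5, and 19.1 and 22.2 CPM (1.09 ± 0.10, adjusted p = 6.54e-07). Both were higher than in either unedited line, with no overlap.

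Plk2, a stress-induced kinase, was higher at 50.9 and 44.6 against 19.3 and 21.4 CPM (1.23 ± 0.12). Mdm2, the main p53 ligase and itself a target, was higher at 140 and 129 against 76.5 and 88.5 CPM (0.70 ± 0.08). Trp53, counted among the 7, was slightly lower, at 267 and 274 against 317 and 317 CPM (-0.23 ± 0.07, adjusted p = 0.0147). The pro-apoptotic targets Bax, Bbc3 and Pmaip1 did not pass the test. Protein was not measured.

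Retinoic acid genes had no common direction. Of 25 tested, 7 were higher and 6 lower, with a median of -0.03 against -0.02 over all genes (52% called, against 33.7% of all genes). Rarg, the receptor gene most abundant in stem cells, was higher, at 220 and 208 CPM against 106 and 102 CPM in line 1 and 69.4 and 56.6 CPM in line 2 (1.04 ± 0.08, adjusted p = 1.29e-07). The retinoid carrier Crabp1 was lower, at 1.62 and 2.20 against 4.39 and 5.02 CPM (-1.29 ± 0.18). Of the classical targets, Meis1 (2.15 ± 0.46) and Stra8 (1.90 ± 0.31) were higher at under 5 CPM, Stra8 lying in the displaced part of chromosome 6, and Rarb had at most 3 counts in any library.

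Abca1, the cholesterol exporter controlled by LXR nuclear receptors, stood at 9.47 and 10.1 CPM in WT line 1, 105 and 83.5 CPM in the labelled knockout and 1.79 and 1.78 CPM in line 2 (3.27 ± 0.14, adjusted p = 7.24e-11). It was the gene of the sterol list furthest from its line 1 level, while Abcg1, a related exporter, was lower (-0.85 ± 0.15). Insig1, the sterol sensor, was lower, at 49.4 and 50.4 against 91.1 and 92.0 CPM (-0.88 ± 0.12), and so was Srebf1, the factor that drives lipid synthesis, at 54.8 and 55.6 against 76.0 and 78.2 CPM (-0.48 ± 0.08). Of the synthesis enzymes, Hmgcs1 (-0.31 ± 0.08) and Cyp51 (-0.48 ± 0.11) were lower and Pmvk was higher (0.71 ± 0.14). In the list of 35 sterol genes, 6 were higher and 14 lower (median -0.19, 57.1% called against 33.7% of all genes), but with DOX 11 were higher and 3 lower.

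Glycolysis and hypoxia genes gave 4 higher and 9 lower of 29 (median -0.18, 44.8% called against 33.7% of all genes), but 4 and 4 when CT010467.1 was dropped before scaling, 4 and 5 under RLE, and 11 and 6 against line 2 (median 0.18). Among them, hexokinase 2 (Hk2, on displaced chromosome 6) was higher at 517 and 481 against 222 and 227 CPM (1.15 ± 0.08), the glucose transporter Slc2a1 was higher (0.77 ± 0.08) and Pfkm lower (-0.62 ± 0.08). Autophagy and lysosome genes gave 3 higher and 10 lower of 27 (48.1% called, against 33.7% of all genes), with a median of -0.02, and 6 and 8 without CT010467.1 (median 0.03). With DOX the counts were 6 and 6. Gabarapl1, an autophagosome protein of the ATG8 family, was lower, at 6.67 and 6.73 against 25.2 and 26.5 CPM (-1.95 ± 0.11).

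Stress response genes gave 4 higher and 9 lower of 27 (median -0.17, 48.1% called against 33.7% of all genes). The 4 higher ones, Edem1, Mthfd2, Pdia4 and Asns, all lie in the displaced part of chromosome 6, and the 9 lower ones lie outside the displaced windows. The chaperone Hspa5 (-0.52 ± 0.08) and the stress factor Ddit3 (-1.33 ± 0.22) were among the lower ones, and Ddit3 shares its place with an overlapping gene model of the same symbol, so reads may be split between them. Interferon and nucleic acid sensing genes gave 8 higher and 5 lower of 21 (median 0.48, 61.9% called against 33.7% of all genes), but 8 and 2 under RLE, 7 and 2 in DESeq2, and 6 and 6 against line 2 (median -0.04). Among them, Tmem173, the adaptor STING, stood at 5.65 and 3.71 against 0.343 and 0.579 CPM (3.31 ± 0.46) and the class I gene H2-D1 was higher by 1.30 ± 0.19. H2-K1 was higher than in line 1 (0.94 ± 0.13) and not than in line 2 (-0.08). With DOX the interferon list gave 5 higher and 4 lower (median 0.11). Its members Ifit1, Ifit3, Isg15, Irf7, Mx1 and Mx2 had at most 4 counts in each compared library and were not tested.

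In the list of germline genes, many of which DNA methylation keeps silent in stem cells, 8 were higher and 5 lower of 28 (46.4% called, against 33.7% of all genes). Against line 2 the balance turned, to 5 higher and 12 lower, and line 2 against line 1 gave 12 and 3. The 8 include Zfp42, which stem cells express and whose call was lost in some settings, as given above. The X-linked homeobox gene Rhox5 stood at 2.88 and 4.44 CPM in WT line 1, at 31.8 and 22.7 CPM in the labelled knockout and at 2.91 and 5.09 CPM in line 2 (2.88 ± 0.30). Tex15 was higher by 1.15 ± 0.15 against line 1 and not against line 2 (-0.20), and Prdm1, a regulator of primordial germ cells, was lower (-1.27 ± 0.14). Of 17 DNA methylation genes 5 were higher and 4 lower (52.9% called, against 33.7% of all genes). Tet3, a 5-methylcytosine oxidase gene on displaced chromosome 6, was higher, at 42.8 and 36.4 against 13.3 and 13.7 CPM (1.55 ± 0.15).

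Most genes in the list of the 2-cell state, which DUX switches on, were near the detection limit before induction. Of 37 tested, 2 were higher and 0 lower in the edgeR quasi-likelihood test (5.41% called, against 33.7% of all genes), 2 were higher and 1 lower at an unadjusted p under 0.05, and DESeq2 called 2 higher and 3 lower. The median of -0.98 rests on few counts, and against line 2 it was 1.04, with 2 higher and 0 lower. Line 2 against line 1 gave 0 higher and 8 lower (median -1.99). Zscan4c, a telomere regulator of that state, stood at 0.360 and 0.812 against 1.51 and 1.22 CPM (-1.20, adjusted p = 0.12), and Zscan4d had a log2 fold change of -1.09 (adjusted p = 0.204). In other settings their adjusted p went as low as 0.0183 and 0.0373. Zfp352 and Dux (Duxf3) were at the floor of 3 counts in both groups, so no fold is given. Duxbl1, a double homeobox relative of Dux, was higher at 2.70 and 1.28 against 0.617 and 0.515 CPM (1.80 ± 0.46, adjusted p = 0.00627), but with replicate 1 of the labelled knockout left out the adjusted p was 0.122. The other called member, Zfp809, is a KRAB zinc finger gene that targets VL30 and related retroviruses and was not near that limit. It was higher at 55.8 and 51.3 against 30.7 and 35.0 CPM (0.70, adjusted p = 9.56e-05).

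Chromatin regulators of the 2-cell state, most of them repressors, had 10 higher and 11 lower of 34 (61.8% called, against 33.7% of all genes). The list also holds Dppa2 and Dppa4, known as activators of Dux, of which Dppa4 was among the 10 (0.21). Ehmt2, the H3K9 methyltransferase G9a, was higher, at 386 and 337 against 175 and 173 CPM (1.06 ± 0.09), and Atrx, a heterochromatin remodeller, was higher, at 499 and 445 against 261 and 275 CPM (0.82 ± 0.07). Setdb1, the partner of TRIM28, was lower (-0.39 ± 0.08), as was Trim28 itself.

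Several of the larger changes fell outside these lists. Slfn9, of the Schlafen family, stood at 44.9 and 41.4 CPM in WT line 1, at 1.80 and 3.02 CPM in the labelled knockout and at 37.6 and 34.9 CPM in line 2 (-4.15 ± 0.21, adjusted p = 5.06e-10). Fat2, an atypical cadherin, stood at 0.180 and 0.522 against 19.1 and 20.1 CPM (-5.76 ± 0.36), and Nlrp4a, of an oocyte NLR family, at 0.0601 and 0.522 against 10.2 and 12.4 CPM (-5.22 ± 0.36). Mcf2, a guanine nucleotide exchange factor, fell from 62.7 and 68.2 to 6.25 and 8.53 CPM (-3.14 ± 0.17), and Aff1, a subunit of elongation complexes, from 192 and 199 to 53.4 and 67.1 CPM (-1.70 ± 0.09). In the other direction, the histone gene Hist1h2bq had 0 counts in both WT line 1 libraries and 169 and 79.6 CPM in the labelled knockout, at least 624-fold higher (adjusted p = 0.00343). Its sequence is close to that of other histone H2B genes, so its count is uncertain, and with DOX its difference did not pass the test (0.84).

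Among repeats, 148 of 965 subfamilies (15.3%) passed the threshold, 126 higher (13.1%) and 22 lower (2.28%), and the median log2 fold change was 0.18. Without replicate 1 of the labelled knockout 36 passed, 27 higher and 9 lower, and with repeats fitted apart from genes 67 passed, 49 higher and 18 lower. WT line 2 against line 1 gave 113 (11.7%), 80 higher (8.29%) and 33 lower (3.42%), with a median of 0.16. The labelled knockout against line 2 gave 51 (5.28%), 40 higher (4.15%) and 11 lower (1.14%). With DOX, 110 (11.4%) differed. Of the higher ones, 22 were among 35 SINE subfamilies and 33 among 150 LINE subfamilies, with median log2 fold changes of 0.25 and 0.22. With DOX, 3 SINE and 25 LINE subfamilies were higher. Line 2 had 21 higher SINE subfamilies against line 1, and the SINE median of the labelled knockout against line 2 was -0.0029.

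Larger changes were found at endogenous retroviruses of the ETn type. MMETn-int, the internal part of a non-autonomous ERVK element that still transposes in mice, stood at 1533 and 1562 CPM in WT line 1, at 4681 and 4453 CPM in the labelled knockout and at 1491 and 1488 CPM in WT line 2. The related ETnERV-int stood at 1743 and 1774 against 553 and 558 CPM, and their LTR, RLTRETN_Mm, at 225 and 221 against 95.0 and 95.2 CPM. The 2 unedited lines were close at MMETn-int and the labelled knockout lay apart. Log2 fold changes were 1.56 ± 0.07, 1.66 ± 0.08 and 1.23 ± 0.06 against line 1 (adjusted p = 2.1e-10 for MMETn-int), and 1.62, 1.76 and 1.69 against line 2. With DOX they were 1.54, 1.59 and 1.15. ETnERV2-int was lower (-0.62 against line 1).

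RLTR1B, an ERV1 LTR, was higher too, at 86.0 and 79.6 against 25.4 and 26.3 CPM (1.68 ± 0.10), and RMER12B, an ERVK element, at 25.7 and 22.8 against 3.16 and 4.25 CPM (2.70 ± 0.17). Among elements outside the naming rule, RLTR1B-int (1.74 ± 0.15), RLTR13G (1.60 ± 0.10) and MMERGLN-int (1.15 ± 0.14) were higher. IAPEz-int, the main intracisternal A particle body, had a log2 fold change of 0.09 (adjusted p = 0.684), while IAP1-MM_I-int (-1.18 ± 0.17) and IAPEY3-int (-1.09 ± 0.16) were lower than in line 1. Against line 2 IAP1-MM_I-int gave 0.14. In the list of IAP and ETn subfamilies 3 of 21 were higher and 3 lower (28.6% called, against 15.3% of all repeat subfamilies).

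VL30 is the element tied to TRIM24 in liver. Its internal part MMVL30-int stood at 30.6 and 30.6 against 23.6 and 26.4 CPM (0.29, adjusted p = 0.188), and its LTR RLTR6_Mm at 14.8 and 15.9 against 10.5 and 9.78 CPM (0.60 ± 0.17, adjusted p = 0.0285). The call on RLTR6_Mm was lost in 3 of 4 runs that left out 1 library, with adjusted p up to 0.0958, and MMVL30-int passed in some other settings, with adjusted p as low as 0.00382. Of the 5 VL30 subfamilies 1 was higher and 0 lower (20% called, against 15.3% of all repeat subfamilies). At an unadjusted p under 0.05, edgeR gave 1 higher and 1 lower. The median log2 fold change of the 5 was -0.37, and the lowest was -0.46.

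MERVL, the retrovirus that marks the 2-cell state, gave 0 of 8 called in the edgeR quasi-likelihood test, against 15.3% of all repeat subfamilies. It gave 0 at an unadjusted p under 0.05 and 0 in DESeq2. MERVL-int stood at 106 and 132 against 137 and 132 CPM (-0.18 ± 0.16, adjusted p = 0.509), and its LTR MT2_Mm had a log2 fold change of -0.03 (adjusted p = 0.934). Young LINE-1 gave 2 lower of 6 (33.3% called lower, against 2.28% of all repeat subfamilies). L1Md_A was lower, at 315 and 426 against 810 and 791 CPM (-1.11 ± 0.20, adjusted p = 0.00206), and line 2 was lower still, at 281 and 231 CPM. L1Md_T (-0.35, adjusted p = 0.612) and the major satellite GSAT_MM (-0.59, adjusted p = 0.213) did not pass, though each passed in some other settings, with adjusted p as low as 4.71e-05 and 0.00219, as did MERVL-int in 1 (0.0332). The satellite subfamily MMSAT4 was lower, at 1257 and 1399 against 1842 and 1947 CPM (-0.51, adjusted p = 0.00137).

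**Figure D5:**
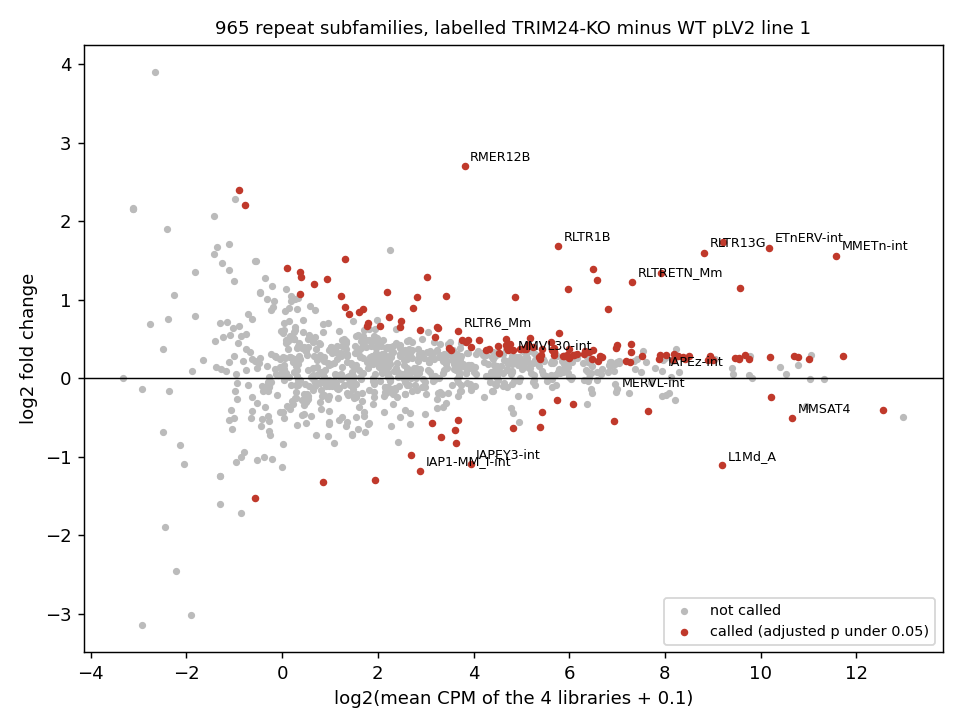
Log2 fold change of the labelled knockout minus WT line 1 for 965 repeat subfamilies against log2(mean CPM of the 4 libraries + 0.1), with called subfamilies in red. MMETn-int, ETnERV-int and RLTRETN_Mm stand out at 1.23 to 1.66 among abundant elements, while MERVL-int and IAPEz-int lie near 0.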

How the data were processed

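The labels' protocols describe rRNA-depleted total RNA, a strand-specific kit and read pairs of 75 bp. The values used are raw counts, whole numbers for each gene and each repeat subfamily, as deposited, per the file headers. The submitters' processing notes name bcl2fastq 2.20.0, cutadapt 1.18, STAR 2.7.6a and build mm10. The counting tool, its strand setting and its rule for multi-mapping reads are not given in the sources used here, so overlapping, antisense and near-identical genes may share reads. Groups follow the sample titles.

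Symbols and positions came from GENCODE M21 (GRCm38). Of 55487 gene IDs, 54349 matched with their version, 792 without it and 346 did not match. The 16 pLV2 libraries (8 groups of 2) were fitted together in edgeR 4.0.16 (R 4.3.3, glmQLFit and glmQLFTest, 2-sided), with TMM factors from genes and the filterByExpr filter, which kept 18079 genes and 965 of 1146 repeat subfamilies. P-values were adjusted by Benjamini-Hochberg, for genes and repeats apart, with a threshold of 0.05. SE is the log2 fold change divided by the root of F, and n = 2 per group. CPM use effective library sizes and were not divided by transcript length, so levels are compared between libraries and not between genes. A group with at most 3 counts in each library was at the floor, and folds against it are lower bounds. The fit was checked on simulated data.

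The members and lists were chosen with earlier results of these data known. Named genes were a fixed set of TIF1, 2-cell-state and pluripotency genes and repeats, the 8 genes per direction with the smallest p and the 6 with the largest change (adjusted p under 0.05, mean of at least 50 counts, no overlap of the groups), the 3 most significant called members of each of 25 lists, and 5 repeats per direction. Other genes named are examples chosen after their values were seen. The alternatives are listed in the closing section.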

Additional observations from a re-analysis of the deposited data

Results flagged for a closer look

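The difference between the lines changed with DOX, by the interaction test in edgeR, at 4 of the features named by rule (Id3, an example named above, also passed). For Fbxo15 the log2 fold change of the labelled knockout was -1.53 without DOX and -0.65 with it, a change of 0.88 (adjusted p = 0.00709). For Srebf1 it was -0.48 and 0.10, a change of 0.58 (adjusted p = 0.0339). The IAP subfamily IAPEY3-int went from -1.09 to 0.19, a change of 1.29 (adjusted p = 0.00852), and RMER12B from 2.70 to 1.03, a change of -1.68 (adjusted p = 0.004). Over all genes 36 passed this test (0.199%), 34 with a positive change, and 5 to 20 passed with 1 of the 4 compared libraries left out.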

How the results depend on the processing

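The alternatives were other scalings (RLE factors, library sizes over genes and repeats, without CT010467.1), no filter on low counts or a mean of at least 10, fewer libraries in the fit, the replicate number as a block, a minimum log2 fold change of 1 (glmTreat), WT line 2 or the mean of both WT lines as reference, DESeq2 1.42.0, and each replicate left out. Those with repeats fitted apart, without the genes of displaced windows, without the labelled knockout with DOX replicate 2, and without it and TRIM33-KO with DOX replicate 2, were chosen after seeing the data. The all-gene median moved between -0.04 and 0.01 over the scalings.

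The main counts were 6100 genes, 148 repeat subfamilies, 5791 genes with DOX, 36 genes whose difference changed with DOX, and 6886 genes between the WT lines. With glmTreat they were 543, 8, 490, 0 (185 at an unadjusted p under 0.05) and 359. For repeats the count was 284 without a filter, 255 in a fit of the 4 compared libraries, 228 in one of the 8 libraries without DOX, 51 against line 2, 56 against the mean of the WT lines, 67 with repeats fitted apart and 248 without the labelled knockout with DOX replicate 2, where 6247 genes passed and 32 changed with DOX. Without that library and TRIM33-KO with DOX replicate 2, 29 changed with DOX, and the adjusted p of L1Md_T was 0.0495. The count for the change with DOX was 175 without a filter and 71 in DESeq2. The causes were not tested. DESeq2 gave 4770 genes and 162 repeat subfamilies for the main comparison. Outside the displaced windows 5646 genes passed.

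With 1 of the 4 compared libraries left out, the lone sample of its group is assumed to vary like the other groups. The gene count then ranged from 3929 (without WT line 1 replicate 2) to 4785, and was 4025 without replicate 1 of the labelled knockout. Repeats ranged from 36 (without labelled knockout replicate 1) to 138, genes with DOX from 5532 to 5693, the change with DOX from 5 to 20 and genes between the WT lines from 4867 to 6824. Deviations of the same-numbered libraries of both groups correlated at 0.0126. Between libraries with and without DOX this was 0.0142 in WT line 1, 0.118 in the labelled knockout and 0.195 in WT line 2. Such values cannot tell whether samples of the same replicate number were handled together, and the labels do not say. With the number as a replicate block the counts were 6276, 150, 5879, 44 and 7033.

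Some named features changed sign. Against WT line 2 these were Trim24 (-0.47), Zscan4c (1.60), Zscan4d (1.04), Pou5f1 (0.38), Zfp42 (-0.44), Rian (-0.31), Meg3 (-0.20), B830012L14Rik (-0.071), Fbn1 (-0.62), Tex15 (-0.20), H2-K1 (-0.085), MERVL-int (0.30), MT2_Mm (0.32), L1Md_T (1.03), GSAT_MM (0.19) and IAP1-MM_I-int (0.14). Against the mean of the WT lines they were Trim24 (-0.029), Zscan4c (0.20), Pou5f1 (0.16), Zfp42 (-0.047), MERVL-int (0.062), MT2_Mm (0.15) and L1Md_T (0.34). Pou5f1 and MT2_Mm, both near 0, also turned, Pou5f1 to 0.0027 without CT010467.1, 0.00014 without a filter and from -0.043 to 0.014 with a compared library left out. MT2_Mm turned to 0.0032 with RLE factors, 0.026 without CT010467.1, 0.025 without a filter, 0.0080 with 8 libraries, 0.0031 in DESeq2, 0.016 without the labelled knockout with DOX replicate 2, and ranged from -0.13 to 0.11 with a compared library left out. The depth limits the 2-cell-state genes, most of which had few counts per library.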
